A study of Mus musculus with 12 samples.

Results

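The genes described here mark macrophages and other leukocytes, and were measured in the left ventricle of the mouse heart. They are 35 named genes, and every probe set whose platform symbol is one of them was taken. Of these, 34 genes had a probe set, 56 probe sets in all among the 45037 that are no controls, and Spp1 was not analysed here. At the filter on dim probe sets, a normalized intensity of 9.42 on the log2 scale, 31 of the 34 genes were kept among 11166 genes tested of 18193. Cd3e (a T cell receptor chain), Cd79a (a B cell receptor chain) and Itgam (the alpha chain of the integrin CD11b) lay below it. For 30 of the 31 genes the mean of each of the 4 groups was above the filter, and Cd163 had 1 group mean below it, in non-transgenic hearts given tamoxifen.

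The series compared male C57BL/6 mice carrying ATF6-MER with their non-transgenic littermates. ATF6-MER joins ATF6, a transcription factor that switches on genes for protein folding when the endoplasmic reticulum is overloaded, to a mutant estrogen receptor that tamoxifen activates. Transgenic (TG) and non-transgenic (NTG) mice received either tamoxifen or vehicle, with 3 mice in each of the 4 groups and 1 array per heart. The labels do not state which promoter drives the transgene, nor the dose and duration of tamoxifen. The control for the drug itself is the NTG pair, and the control for the transgene without the drug is TG vehicle against NTG vehicle.

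Several arrays need naming before the results. The array titled TG vehicle 3 has tamoxifen in its treatment field, and the mouse of TG tamoxifen 1 is given as 40 weeks old against about 30 weeks for the others. Groups follow the titles. The array labelled NTG tamoxifen 1 goes against its label: its Esr1 level, where the receptor part of the transgene is read, was 17.72, within the 16.66 to 18.23 of the TG arrays, while the other NTG arrays were at 10.88 or less. Its level of Hspa5, the chaperone BiP and a classical ATF6 target, was 18.05, close to the 18.37 to 18.47 of TG tamoxifen and above the 15.49 to 16.38 of the other arrays. On TG vehicle 3, Hspa5 read 15.94, beside 16.38 and 15.76 on the other TG vehicle arrays. The counts of genes that passed, and the medians over the genes, are given with and without NTG tamoxifen 1. Counts of groups without overlap, and many values of single genes, are given only with it. The ratio of 3' to 5' beta-actin signal, a measure of RNA integrity and labelling, ran from 2.12 to 2.43 in NTG vehicle, from 1.78 to 1.97 in NTG tamoxifen, from 1.32 to 1.68 in TG vehicle and from 1.75 to 1.88 in TG tamoxifen, so it moved with the groups.

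The heart holds resident macrophages, many of them seeded before birth, which clear debris and dying cells and are recognised by scavenger receptors such as CD163, by LYVE1, by the folate receptor FOLR2 and by abundant complement C1q. Monocytes that enter from the blood carry the chemokine receptor CCR2 and follow its ligands, and after injury they add a second population of macrophages. Genes such as Ptprc (CD45) and Cd53 are shared by nearly all leukocytes and do not separate one kind from another. In a whole ventricle most RNA comes from cardiomyocytes, and the RNA of all cells is read together. A change in the number of cells of a type and a change in RNA per cell therefore cannot be told apart.

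PU.1, encoded by Spi1, is the ETS family transcription factor on which the myeloid lineage depends, and it binds sites built around GAGGAA. RefSeq promoter windows (GRCm38.p6, 250 bases before to 50 after the annotated start) were found for 25 of the 34 genes, 29 windows in all. GAGGAA, searched on both strands (TTCCTC on the other), stood in 16 of the 29 windows (55.2%) against 28.3% of the 32851 mouse windows. Among genes that rose in TG tamoxifen against TG vehicle (below) it stood in 5 of 12 windows (41.7%), and among tested genes that did not pass in 8 of 14 (57.1%). The longer form GAGGAAGT, which contains GAGGAA, stood in 4 of 29 windows (13.8%) against 3.2%. The site TGACGTGG, which ATF6 can bind, stood in 1 window of the 29, that of Cd3e (3.45% against 0.676%), and in none of the 12. The AP-1 site TGAGTCA stood in 2 windows (6.9% against 5.2%). A match is only a run of letters, and no binding was measured. The windows of 4 genes that rose are shown, 3 with the PU.1 letters and that of Ccr2, the gene with the largest rise, without them; capitals mark GAGGAA or TTCCTC.
Cd53, chr3:106790100-106790399, minus strand: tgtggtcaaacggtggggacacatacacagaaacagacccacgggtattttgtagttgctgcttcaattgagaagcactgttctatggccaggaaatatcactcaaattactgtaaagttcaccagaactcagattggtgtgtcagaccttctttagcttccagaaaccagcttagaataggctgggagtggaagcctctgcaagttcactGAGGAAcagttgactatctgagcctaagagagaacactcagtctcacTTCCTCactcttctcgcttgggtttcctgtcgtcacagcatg
Ctss, chr3:95526536-95526835, plus strand: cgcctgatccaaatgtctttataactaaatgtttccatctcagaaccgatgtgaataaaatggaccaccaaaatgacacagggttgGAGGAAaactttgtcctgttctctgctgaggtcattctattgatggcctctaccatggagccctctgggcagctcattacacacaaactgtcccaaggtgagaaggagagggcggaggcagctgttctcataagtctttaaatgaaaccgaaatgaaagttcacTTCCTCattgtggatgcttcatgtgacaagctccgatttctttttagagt
Mrc1, chr2:14229164-14229463, plus strand: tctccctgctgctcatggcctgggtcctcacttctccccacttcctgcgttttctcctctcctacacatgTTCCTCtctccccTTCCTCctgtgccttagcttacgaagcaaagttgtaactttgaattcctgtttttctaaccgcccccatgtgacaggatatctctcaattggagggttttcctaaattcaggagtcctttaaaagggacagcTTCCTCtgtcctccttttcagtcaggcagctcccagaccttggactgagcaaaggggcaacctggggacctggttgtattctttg
Ccr2, chr9:124101933-124102232, plus strand: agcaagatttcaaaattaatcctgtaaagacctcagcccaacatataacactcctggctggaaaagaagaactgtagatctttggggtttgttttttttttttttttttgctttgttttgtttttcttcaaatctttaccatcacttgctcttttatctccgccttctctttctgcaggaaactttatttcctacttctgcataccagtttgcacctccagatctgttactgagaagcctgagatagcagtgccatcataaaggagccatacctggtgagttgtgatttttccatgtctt
In Mrc1 the 3 matches began at -180, -167 and -35 from the annotated start, all on the minus strand.

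Tamoxifen in TG hearts raised 12 of the 31 genes and lowered 0 (limma, Benjamini-Hochberg adjusted p under 0.05; 15 genes had an unadjusted p under 0.05). Of all genes tested, 10.4% were called higher and 14.4% lower in this comparison. The median log2 change was 0.67 over the 31 genes and -0.07 over all genes tested. The rises were led by Ccr2 (6.45-fold), Cd52 (4.43-fold), Lgals3 (3.79-fold) and Cd53 (3.61-fold). Log2 changes were above 0 for 23 of the 31 genes and below 0 for 8, and none of the 8 passed the test. The groups did not overlap for 15 genes, all higher in TG tamoxifen, where 19.8% of all genes were so placed in that direction and 24.4% in the other.

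**Figure D1:**
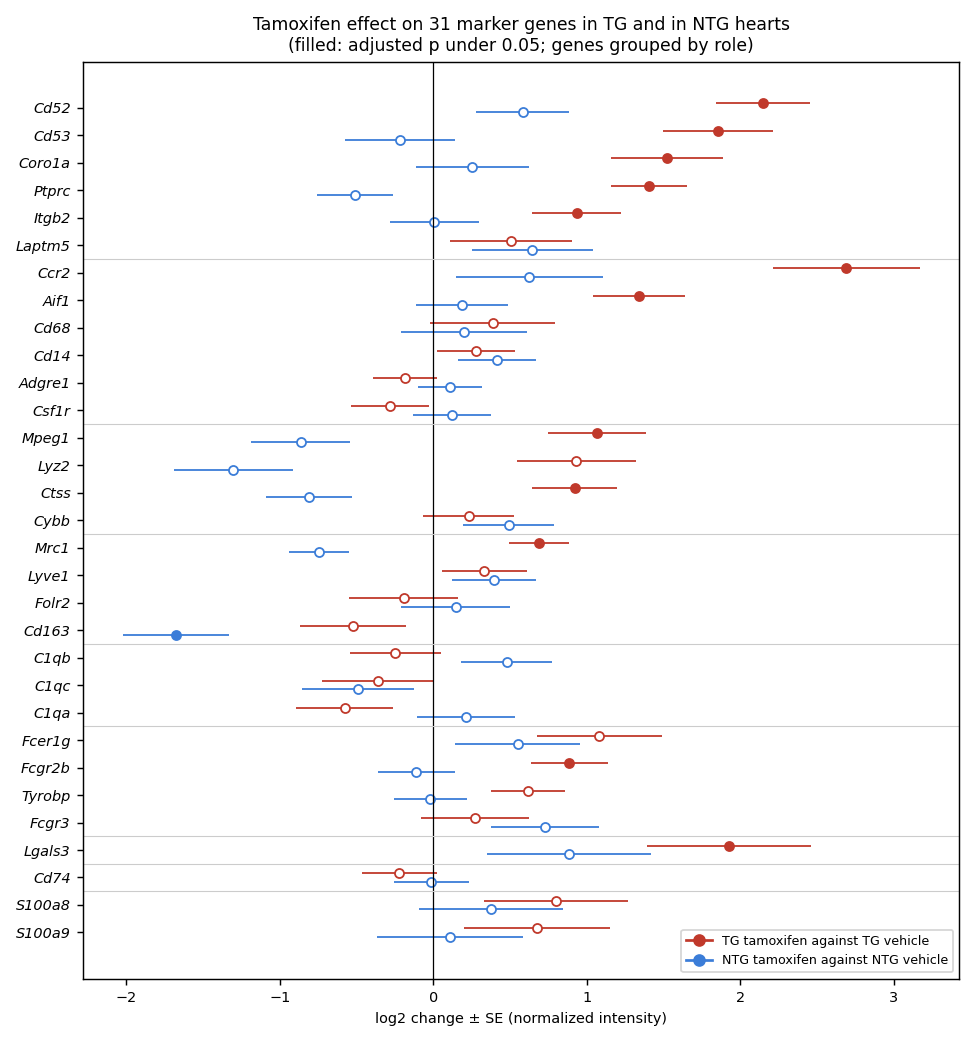
Log2 change with tamoxifen (x axis, ± SE, 3 arrays per group) for the 31 genes, grouped by role, in TG hearts (red) and NTG hearts (blue); filled points have an adjusted p under 0.05. In TG hearts 12 points are filled, all to the right of 0, and in NTG hearts only Cd163 is filled, to the left.

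Of the genes common to all leukocytes, 5 of 6 tested rose. Levels here are normalized log2 intensities in the order of replicates 1, 2 and 3, and each ± is a standard error. Cd52, a small glycoprotein of the leukocyte surface, read 13.68, 13.02 and 12.96 in TG tamoxifen, 10.48, 11.40 and 11.34 in TG vehicle, 12.53, 11.82 and 12.16 in NTG tamoxifen and 11.21, 11.81 and 11.76 in NTG vehicle. The 3 TG tamoxifen arrays lay above all 9 others, and the rise in TG hearts was 2.15 ± 0.30 (adjusted p = 0.00175). Cd53, a tetraspanin of white cells, read 13.10, 12.51 and 12.46 in TG tamoxifen and 10.14, 11.06 and 11.31 in TG vehicle, a rise of 1.85 ± 0.36 (adjusted p = 0.00533). In NTG hearts it lay between 9.49 and 10.72 with either treatment, below every TG tamoxifen array.

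Ptprc, the phosphatase CD45 that defines leukocytes, read 12.72, 11.94 and 12.17 in TG tamoxifen and 10.42, 11.17 and 11.03 in TG vehicle, a rise of 1.40 ± 0.25 (adjusted p = 0.00371). Its NTG arrays spanned 10.25 to 11.01, so that TG tamoxifen again stood above all others. Coro1a, coronin 1A of the leukocyte actin cortex, read 12.15, 11.57 and 11.52 against 9.68, 11.06 and 9.94 in TG vehicle (1.52 ± 0.37, adjusted p = 0.0131). For this gene NTG tamoxifen 1, at 11.50, came close to the TG tamoxifen arrays. Itgb2, the shared beta chain of the leukocyte integrins, read 12.30, 11.66 and 11.64 against 10.65, 11.02 and 11.13 (0.93 ± 0.29, adjusted p = 0.0377). Laptm5, a lysosomal membrane protein of blood cells, was the member that did not pass, with a log2 change of 0.51 (adjusted p = 0.377). Itgam, an alpha partner of Itgb2, was too dim for the gene test. It read 11.18, 10.42 and 9.88 in TG tamoxifen and 6.79, 9.04 and 7.71 in TG vehicle, and in the fit over all probe sets it rose by 2.64 ± 0.53 (adjusted p = 0.0336).

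Of 6 genes of monocyte and macrophage identity, 2 rose. Ccr2, the receptor by which blood monocytes leave the marrow and enter tissue, read 12.91, 11.93 and 11.71 in TG tamoxifen, 9.97, 10.01 and 8.51 in TG vehicle, 9.62, 10.12 and 10.97 in NTG tamoxifen and 9.14, 9.57 and 10.11 in NTG vehicle. All 3 TG tamoxifen arrays were above the other 9, and the rise was 2.69 ± 0.48 (95% interval 1.64 to 3.74, adjusted p = 0.00386). Over all probe sets, a second Ccr2 probe set rose by 2.37 (adjusted p = 0.0244), while the remaining pair had log2 changes of 1.32 and 1.19 that did not pass. Aif1, the calcium-binding protein IBA1, read 11.36, 11.00 and 11.19 against 9.81, 9.30 and 10.41 (1.34 ± 0.30, adjusted p = 0.00967).

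The other 4 did not pass. Csf1r, the receptor for the macrophage growth factor CSF1, had a log2 change of -0.28 (95% interval -0.84 to 0.28), and all 3 of its probe sets had a change below 0. Adgre1, an adhesion receptor long used to stain macrophages, was at -0.18 (-0.64 to 0.27). Cd14, the endotoxin co-receptor, was at 0.28 and Cd68, a lysosomal glycoprotein, at 0.39 (adjusted p = 0.456 and 0.525).

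**Figure D2:**
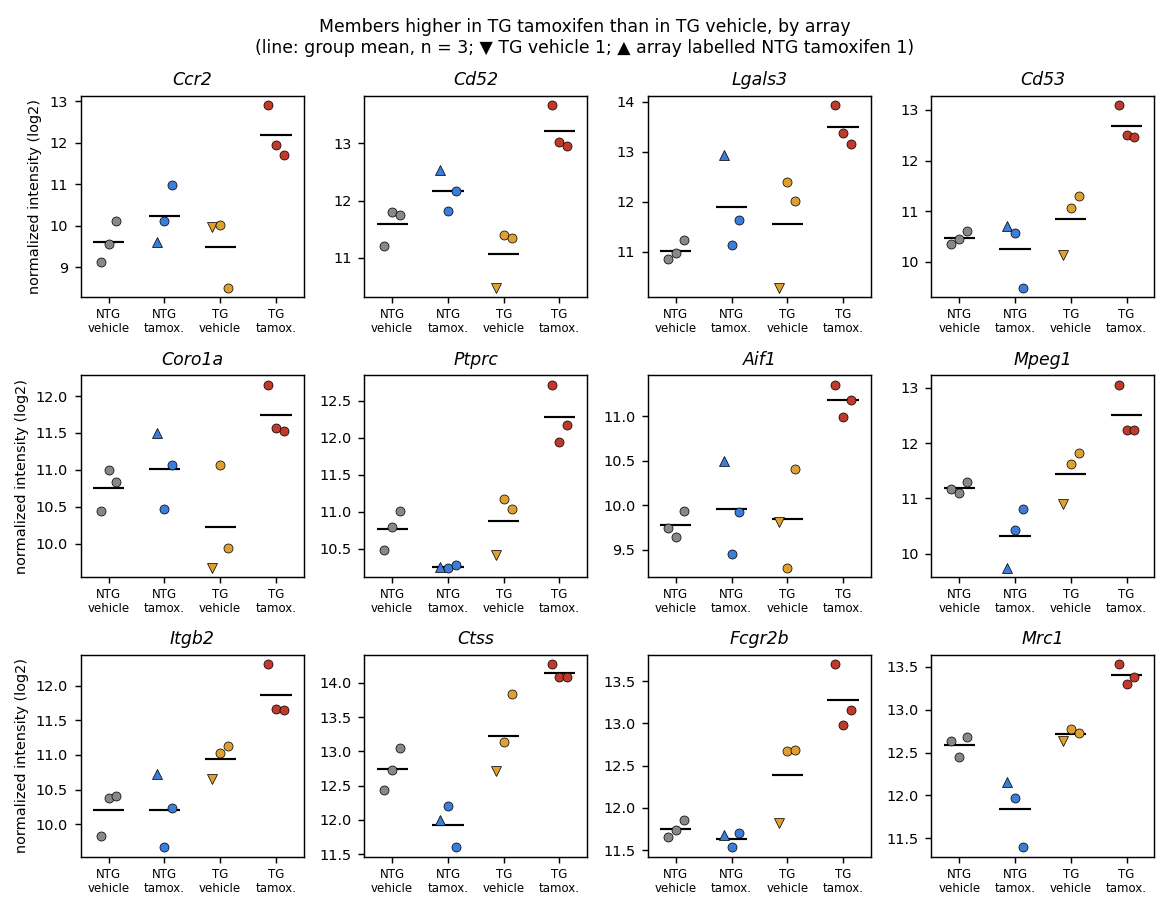
Normalized log2 intensity (y axis) of the 12 genes that rose in TG tamoxifen against TG vehicle, 1 point per array and a line at each group mean of 3 arrays, with TG vehicle 1 and NTG tamoxifen 1 marked by triangles. For each of the 12 genes the 3 TG tamoxifen arrays stand above all 9 others, though barely for Coro1a (11.52 against 11.50 on NTG tamoxifen 1).

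Of 4 genes of the lysosome, the pore protein and the phagocyte oxidase, 2 rose. Mpeg1, perforin-2, which forms pores in engulfed microbes, read 13.06, 12.24 and 12.24 in TG tamoxifen, 10.90, 11.62 and 11.82 in TG vehicle, 9.75, 10.43 and 10.80 in NTG tamoxifen and 11.17, 11.10 and 11.30 in NTG vehicle. It rose by 1.07 ± 0.32 in TG hearts (adjusted p = 0.0327), with no overlap. Ctss, cathepsin S, which trims the invariant chain of MHC class II, read 14.27, 14.09 and 14.09 against 12.71, 13.14 and 13.85 (0.92 ± 0.28, adjusted p = 0.0326). Lyz2, lysozyme, read 16.31, 15.64 and 15.50 against 14.13, 15.23 and 15.29; the groups did not overlap, but the log2 change of 0.93 ± 0.39 did not pass (adjusted p = 0.101). Cybb, the catalytic subunit of the phagocyte oxidase, was at 0.23 (adjusted p = 0.607).

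Of 4 scavenger and resident macrophage genes, 1 rose. Mrc1, the mannose receptor CD206, read 13.53, 13.30 and 13.38 in TG tamoxifen, 12.64, 12.77 and 12.73 in TG vehicle, 12.16, 11.97 and 11.40 in NTG tamoxifen and 12.63, 12.45 and 12.68 in NTG vehicle. The replicates of TG tamoxifen and of each vehicle group lay close together, and the rise was 0.69 ± 0.20 (adjusted p = 0.0262). Lyve1 (0.33), Folr2 (-0.19) and Cd163 (-0.53) did not pass in TG hearts. The other Lyve1 probe set had the opposite sign (-0.28).

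Of the 3 chains of C1q, the recognition molecule of the classical complement pathway, 0 passed in limma, and 0 had an unadjusted p under 0.05. C1qa read 12.86, 12.76 and 12.72 in TG tamoxifen and 12.72, 14.27 and 13.08 in TG vehicle, a log2 change of -0.58 ± 0.32 (95% interval -1.27 to 0.11, adjusted p = 0.20). The spread came from TG vehicle, where replicate 2 was high for all 3 chains. C1qb and C1qc were at -0.25 and -0.36, and the 3 probe sets of C1qb ran from -0.25 to 0.02.

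Of 4 Fc receptor and signalling adaptor genes, Fcgr2b alone passed. Fcgr2b, the inhibitory receptor for IgG, read 13.70, 12.98 and 13.16 against 11.82, 12.68 and 12.68 (0.89 ± 0.25, adjusted p = 0.0259). Its chosen probe set is of a kind that may match related transcripts, and in the fit over all probe sets none of its 5 probe sets passed. This limit is not particular to Fcgr2b. Of the 12 genes that rose, only Ccr2, Cd52, Cd53 and Ptprc passed in that fit on their chosen probe sets, where 1.53% of all genes were called higher. Fcer1g, the adaptor shared by activating Fc receptors, read 12.81, 12.76 and 12.79 against 10.58, 12.27 and 12.26 (1.08 ± 0.41, adjusted p = 0.0733), without overlap but with TG vehicle 1 far below its group. Tyrobp, the adaptor DAP12, was at 0.62 (adjusted p = 0.0806) and the activating receptor Fcgr3 at 0.27 (0.612).

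Lgals3, galectin-3, a secreted lectin of activated macrophages that fibroblasts can also make, read 13.94, 13.37 and 13.16 in TG tamoxifen, 10.29, 12.40 and 12.02 in TG vehicle, 12.93, 11.13 and 11.64 in NTG tamoxifen and 10.85, 10.97 and 11.24 in NTG vehicle. It rose by 1.92 ± 0.53 (adjusted p = 0.024), and NTG tamoxifen 1 was the highest array outside TG tamoxifen. Cd74, the MHC class II invariant chain, read 13.41, 13.14 and 12.99 against 13.43, 13.54 and 13.24 (-0.22 ± 0.25, adjusted p = 0.546). The neutrophil calprotectin genes did not pass: S100a8 read 11.02, 10.89 and 11.50 against 9.84, 11.31 and 9.86 (0.80 ± 0.47, adjusted p = 0.233), and S100a9 was at 0.67 (adjusted p = 0.325). The lymphocyte chains, below the filter, had log2 changes of -0.43 (Cd3e) and -1.17 (Cd79a) over all probe sets, with adjusted p = 0.333 and 0.263.

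Single arrays carried part of these differences. TG vehicle 1 was the lowest of its group for 27 of the 31 genes, against 40.3% of all genes tested, and TG tamoxifen 1 was the highest of its group for 26 of 31, against 31.7%. Without TG vehicle 1, 6 genes rose (Aif1, Ccr2, Cd52, Cd53, Coro1a and Ptprc) and 4 fell, Adgre1 (-0.45, adjusted p = 0.046), C1qa (-0.90, 0.0475), C1qc (-0.86, 0.028) and Folr2 (-0.70, 0.0408). Of all genes tested, 10.7% were then called higher and 14.5% lower, so the share of the 31 genes that fell was no larger than that of all genes. Without TG tamoxifen 1, the older mouse, 5 genes rose (Aif1, Ccr2, Cd52, Cd53 and Ptprc) and 0 fell, where 4.78% of all genes were called higher and 8.35% lower. Those 5 genes therefore passed in both of these fits. Without NTG tamoxifen 1 the same 12 genes rose, where 12.9% of all genes were called higher. With the beta-actin ratio as a covariate 0 of the 31 passed, though 15 had an unadjusted p under 0.05, and 28 of all genes tested were called. The log2 changes of Ccr2, Cd52 and Ptprc were then 2.92, 2.48 and 1.66 (adjusted p = 0.072, 0.055 and 0.061). With TG vehicle 3 grouped by its treatment field instead of its title, 0 passed in limma and 13 had an unadjusted p under 0.05. In that grouping 0 of all 11166 genes were called. Hspa5 on TG vehicle 3 was 15.94, between the levels of the other TG vehicle arrays and below the 18.37 to 18.47 of TG tamoxifen.

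**Figure D3:**
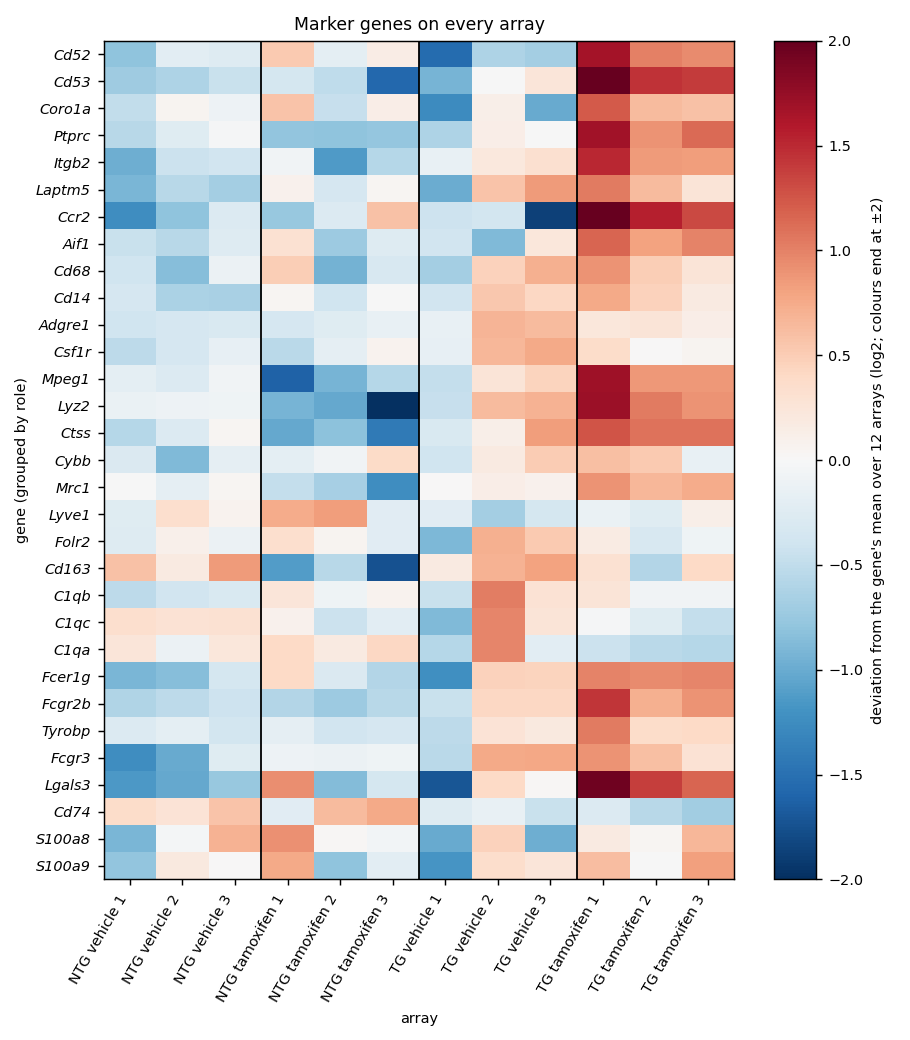
Deviation of each array from the gene's mean over the 12 arrays (log2, colours end at -2 and 2) for the 31 genes in rows and the 12 arrays in columns. TG tamoxifen 1 is the highest of its group for 26 genes and TG vehicle 1 the lowest of its group for 27.

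In NTG hearts tamoxifen changed 1 of the 31 genes. Cd163, the haemoglobin scavenger receptor of resident macrophages, read 9.38, 9.94 and 8.75 with tamoxifen and 11.09, 10.67 and 11.34 with vehicle, and fell by 1.68 ± 0.34 on the log2 scale (adjusted p = 0.0252). Of all genes tested, 0.654% were called higher and 3.65% lower (4.31% in either direction), and 5 of the 31 genes had an unadjusted p under 0.05. The median log2 change was 0.14 over the 31 genes (0.008 without NTG tamoxifen 1) and -0.01 over all. Cd163 stayed within 9.91 to 11.30 on the 6 TG arrays. Lyz2, Mpeg1, Ctss, Mrc1 and Ptprc were lower on every tamoxifen array than on any vehicle array without passing, with log2 changes of -1.30, -0.87, -0.81, -0.74 and -0.51 (adjusted p from 0.0551 to 0.238). In all, 7 of the 31 were lower and 4 higher without overlap, against 17.0% and 13.2% of all genes. Without NTG tamoxifen 1, Cd163 fell by 1.69 (adjusted p = 0.047) and Mrc1 by 0.90 (adjusted p = 0.0386). The Cd163 call was lost when NTG tamoxifen 3 or any 1 of the NTG vehicle arrays was left out, each of which gave 0 calls among the 31 genes and at most 0.206% of all genes called lower.

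In vehicle-treated hearts the transgene changed 0 of the 31 genes in limma, with 8 at an unadjusted p under 0.05, where 1.39% of all genes were called higher and 2.24% lower (3.63% in either direction). The median was 0.27 over the 31 genes and 0.01 over all. The count turned on the TG vehicle arrays. Without TG vehicle 1, which leaves TG vehicle 2 and TG vehicle 3 (the array with tamoxifen in its treatment field), 8 genes were higher in TG vehicle: Adgre1 (1.01), C1qb (1.06), Cd14 (1.02), Csf1r (1.05), Fcer1g (1.16), Fcgr2b (0.93), Fcgr3 (1.59) and Laptm5 (1.42). Of all genes, 2.34% were then called higher. Without TG vehicle 3 it was 0 genes, with 2 at an unadjusted p under 0.05. Adgre1 shows the arrays behind this: TG vehicle read 12.10, 12.93 and 12.89, and NTG vehicle 11.85, 11.91 and 11.94. Without NTG tamoxifen 1 in the fit, 1 gene passed, Cd74, lower in TG vehicle by a log2 change of -0.69 (adjusted p = 0.0351).

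With tamoxifen in both genotypes, 15 of the 31 genes were higher in TG hearts and 1 lower, where 19.0% of all genes were higher and 20.6% lower (39.5% in either direction). This comparison shares the TG tamoxifen arrays with the one in TG hearts, so the calls are not independent. The median was 0.81 over the 31 genes (0.99 without NTG tamoxifen 1) and -0.06 over all. The largest differences were in Lyz2 (2.63, adjusted p = 0.000603), Cd53 (2.43, 0.000599), Ctss (2.22, 0.000328), Mpeg1 (2.19, 0.00059) and Ptprc (2.02, 0.000315). Lyz2 read 15.50 to 16.31 in TG tamoxifen and 12.33 to 13.66 in NTG tamoxifen, the latter below NTG vehicle (14.46 to 14.50). Cd163 (1.18, adjusted p = 0.0182), Fcer1g (1.13, 0.0458) and Tyrobp (0.90, 0.0116) also passed here. Cd74 was the gene that was lower in TG hearts (-0.90, adjusted p = 0.0132), at 12.99 to 13.41 against 13.47 to 14.45. The groups did not overlap for 19 genes higher in TG hearts and 2 lower, against 24.0% and 27.0% of all genes. Without NTG tamoxifen 1, 16 were higher, with Cd68 (1.18) added, and 1 lower, where 20.9% of all genes were higher and 21.9% lower.

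The effect of tamoxifen differed between the genotypes for 7 of the 31 genes, all with the signed change in TG hearts above that in NTG hearts, where 7.51% of all genes had such a difference upward and 6.76% downward. The median difference was 0.56 over the 31 genes (0.81 without NTG tamoxifen 1) and -0.07 over all. They were Lyz2, Cd53, Mpeg1, Ptprc, Ctss, Cd52 and Mrc1. For Lyz2, Mpeg1, Ctss, Mrc1 and Ptprc the difference joined a level above vehicle in TG hearts to a level below vehicle in NTG hearts. None of these falls in NTG hearts passed by itself in the main fit, nor did the rise of Lyz2 in TG hearts. Cd53 was also lower with tamoxifen in NTG hearts (mean 10.26 against 10.47), with overlap. For Mrc1 the log2 change was 0.69 in TG and -0.74 in NTG hearts, a difference of 1.43 ± 0.28 (adjusted p = 0.0126). For Cd52 the changes were 2.15 and 0.58, a difference of 1.57 ± 0.43 (adjusted p = 0.0344). Ccr2, with changes of 2.69 and 0.63, missed the threshold (2.06 ± 0.68, adjusted p = 0.062), also without NTG tamoxifen 1 (1.75, 0.093). Without NTG tamoxifen 1, 9 genes differed, with Aif1 (1.42, adjusted p = 0.0269) and Itgb2 (1.19, 0.0482) added, while the share of all genes rose to 11.8% upward and 11.0% downward. Without TG tamoxifen 1, NTG vehicle 2 or NTG vehicle 3, 4 remained in each case, Ctss, Mpeg1, Mrc1 and Ptprc, where 3.5%, 3.18% and 4.15% of all genes differed upward.

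Further lists of leukocyte and heart genes set these changes beside the rest of the tissue. In TG tamoxifen against TG vehicle, 10.4% of all genes tested were called higher and 14.4% lower. Of 22 other monocyte and inflammatory macrophage genes listed, 18 had a probe set and only 9 passed the filter. Of the 9 tested, 8 were higher and 0 lower. They included the matrix proteoglycan Vcan (2.17 ± 0.23, adjusted p = 0.00121), Plac8 (2.09 ± 0.33, 0.00243) and the acute-phase protein Saa3 (2.42 ± 0.43, 0.00405). Of 8 macrophage growth factor and monocyte chemoattractant genes, 5 were higher, among them Ccl2, a ligand of CCR2, at 14.24, 13.95 and 14.13 in TG tamoxifen against 9.46, 9.64 and 10.41 in TG vehicle (4.27 ± 0.90, adjusted p = 0.00771). Ccl2 read 11.51, 6.92 and 7.63 in NTG tamoxifen, so that the array labelled NTG tamoxifen 1 stood apart there too. It did not stand above the other NTG arrays for Ccr2 (9.62), Mpeg1 (9.75), Ptprc (10.25) or Fcgr2b (11.68). Of the 31 genes, it was the highest of its group for 18 and the lowest for 6, against 37.4% and 36.4% of all genes. The mean of Ccl2 over the 9 arrays outside TG tamoxifen was 9.40, just under the filter. Ccl2 therefore entered the test through the group where it is high and had to differ. Ccl7 (3.41, adjusted p = 0.00369) and Ccl12 (3.64, 0.00172) were the other leading genes.

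Other resident macrophage genes had 0 of 13 higher and 1 lower, Selenop (-1.26 ± 0.22, adjusted p = 0.00368), a selenium carrier. With 10.4% of all genes called higher and 14.4% lower, 1 or 2 calls in lists this short say little about a list. Among macrophage lysosome and phagosome genes 1 of 11 was lower, Apoe (-1.33, adjusted p = 0.0129), and 0 were higher. Leukocyte actin, integrin and Rac genes had 2 of 11 higher, the hyaluronan receptor Cd44 (2.59, 0.00209) and the actin bundler Lcp1 (1.39, 0.0072), and oxidase partners had 1 of 4, Ncf4 (1.81, 0.0209), which likewise entered the test through TG tamoxifen (mean of 9.40 outside it). Of 9 myeloid kinases and transcription factors 0 passed in limma, with 3 at an unadjusted p under 0.05. The same count was 0 of 5 for the classical complement partners of C1q (2 unadjusted), 0 of 2 for mast cells (0 unadjusted) and 0 of 2 for red cells (0 unadjusted).

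Of the markers of other blood cells tested, none passed as higher. Other neutrophil genes had 1 of 3 tested lower (Ngp, -0.71, adjusted p = 0.0477), T and NK cell genes 1 of 4 lower (Zap70, -0.59, 0.0371), B cell genes 1 of 4 lower (Ighm, -1.30, 0.0311) and platelet genes 2 of 4 lower, with 0 higher in each. Since 14.4% of all genes were called lower in TG tamoxifen against TG vehicle, such counts in lists this short do not show a fall of these cells. Many genes of these lists were too dim to test. Dendritic cell and MHC class II genes had 0 of 7 passing (2 unadjusted), with a median log2 change of -0.59. In TG against NTG hearts on tamoxifen, 2 of these 7 genes were lower and 0 higher, where 20.6% of all genes were lower. They were H2-Ab1 (-0.86, adjusted p = 0.00669) and H2-Eb1 (-1.16, 0.00431), chains of MHC class II. Cd74, also lower there, had a log2 change of -0.69 in TG vehicle against NTG vehicle that did not pass.

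Over all genes tested, TG tamoxifen against TG vehicle gave 10.4% called higher and 14.4% lower. Genes of the other heart cells likewise had more calls lower than higher. Cardiomyocyte genes had 3 of 10 lower (such as Tcap, -2.08, adjusted p = 0.0045), endothelial genes 4 of 8 lower (such as Tie1, -0.86, 0.00904), smooth muscle and pericyte genes 1 of 7 lower (Kcnj8, -0.78, 0.00695), and fibroblast genes 1 of 8 higher (Col3a1, 0.95, 0.0316) and 2 lower. The mean level of the cardiomyocyte list was 17.27 to 17.39 in TG tamoxifen and 17.53 to 17.99 on the other arrays, which checks the labelled tissue, and its part in the leukocyte results was not tested. The mean level of the 31 genes ran from 11.44 to 11.78 in NTG vehicle, from 11.51 to 11.82 in NTG tamoxifen, from 11.29 to 12.21 in TG vehicle and from 12.38 to 12.81 in TG tamoxifen, without overlap between TG tamoxifen and the others.

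**Figure D4:**
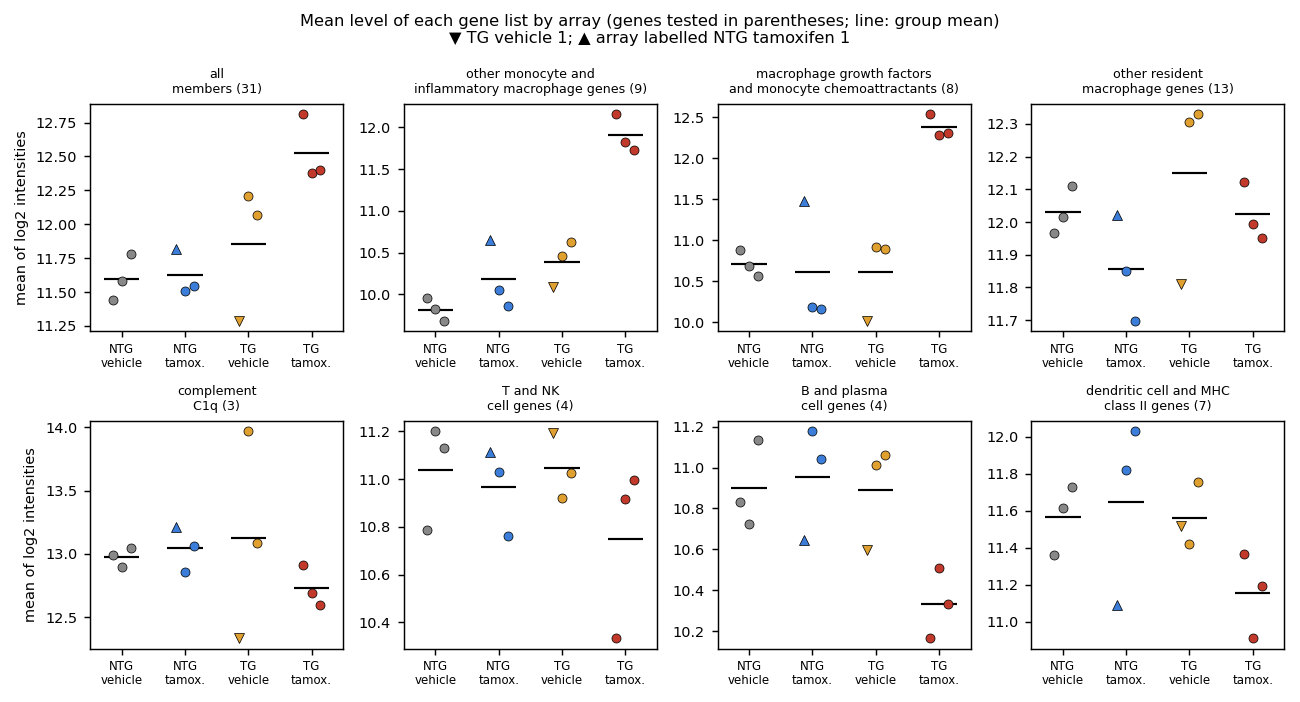
Mean normalized log2 intensity (y axis) of 8 gene lists on each array, by group of 3 arrays. The mean of the monocyte and inflammatory list is 11.73 to 12.16 in TG tamoxifen and 9.68 to 10.65 on the 9 other arrays, while the C1q mean is 12.60 to 12.91 in TG tamoxifen and 12.33 to 13.97 on the others.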

How the data were processed

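Left ventricles of 12 mice were each read on an Affymetrix whole-genome mouse array. The authors deposited linear intensities for every probe set, with the Affymetrix protocol cited in the labels; their summarisation software is not stated there. On every array the 2% trimmed mean equalled 2500.02, as tested on the file. Since array medians spanned 0.356 on the log2 scale, above the allowed 0.2, log2(value + 16) was quantile normalized without the 64 control probe sets. With this offset, folds of dim genes come out too small.

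Symbols came from the platform annotation where a probe set had 1 of them (34945 probe sets; 932 had several), and gene identifiers changed 0 symbols. Each gene is represented by its brightest probe set on average, and genes under the 50th percentile (intensity 670.3) were dropped. Probe sets marked as possibly matching several transcripts represent Adgre1, Aif1, Cd74, Coro1a, Fcgr2b, Folr2, Laptm5, Ptprc and S100a8.

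limma 3.58.1 (R 4.3.3) fitted the 4 group means to all arrays at once, with lmFit, eBayes and two-sided tests, 8 residual and 3.55 prior degrees of freedom, Benjamini-Hochberg adjustment over 11166 genes, a threshold of 0.05 and 95% intervals. The code was tested on simulated data. The number of arrays limits the precision. Each heart had its own array, per the labels. Replicate numbers do not pair the mice: deviations of same-number arrays correlated between -0.087 and 0.092 over 18 pairs.

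The 35 genes and the 19 further lists were chosen with earlier results of these data known, so no list count is independent support. Array values are given for genes that passed in TG tamoxifen against TG vehicle or in the difference between the tamoxifen effects, and for the gene with the largest change in each role group. Up to 3 genes of each further list are named by smallest adjusted p, and up to 2 in other comparisons. Alternatives varied the scaling, pseudocount, filter, probe set rule, variance trend, arrays in the fit, replicate block, beta-actin covariate and grouping, and left out each array. The fit without both NTG tamoxifen 1 and TG vehicle 1 was chosen after seeing the data.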

Additional observations from a re-analysis of the deposited data

Results flagged for a closer look

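The change with tamoxifen differed between TG and NTG hearts, by limma's test of the difference itself (Benjamini-Hochberg adjusted over all genes, 3 arrays per group), for 7 genes. The difference in log2 change was 2.23 ± 0.55 for Lyz2 (adjusted p = 0.0239), 2.07 ± 0.51 for Cd53 (0.0235), 1.93 ± 0.45 for Mpeg1 (0.0209), 1.91 ± 0.35 for Ptprc (0.0113), 1.73 ± 0.39 for Ctss (0.0189), 1.57 ± 0.43 for Cd52 (0.0344) and 1.43 ± 0.28 for Mrc1 (0.0126). Without the array labelled NTG tamoxifen 1 the 7 differences were 2.47, 2.30, 1.64, 1.91, 1.76, 1.75 and 1.59 in the same order, and all 7 passed. Without TG tamoxifen 1, NTG vehicle 2 or NTG vehicle 3, Lyz2, Cd53 and Cd52 no longer passed.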

How the results depend on the processing

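In TG tamoxifen against TG vehicle, 12 of the 31 genes passed, where 10.4% of all genes were called higher. The count was 7 with no filter on dim probe sets (3.59% of all genes higher), 5 with all probe sets tested (1.53%), 6 without TG vehicle 3 and TG tamoxifen 1 (2.2%), and 0 with the beta-actin covariate (0.125%) or with TG vehicle 3 grouped as TG tamoxifen (0%); leaving out 1 array gave 5 to 13. Without NTG tamoxifen 1 and TG vehicle 1, 9 genes rose and 5 fell (Adgre1, C1qa, C1qc, Csf1r and Folr2). Of all genes, 14.2% were then called higher and 17.9% lower. In NTG tamoxifen against NTG vehicle, 1 gene passed. It was 3 with median centring, a variance trend, or without NTG tamoxifen 1 and TG vehicle 1, 2 with a filter at the 75th percentile, and 0 with no filter, all probe sets, only the arrays compared, a replicate block, the covariate, the regrouping or both conflicting arrays left out (0% to 1.14% of all genes lower, against 3.65%); leaving out 1 array gave 0 to 2. In TG vehicle against NTG vehicle the count of 0 became 2 with the filter at the 75th percentile, and 0 to 8 without 1 array. Without NTG tamoxifen 1 and TG vehicle 1 it became 12, of which 11 were higher and 1 lower (5.28% of all genes higher and 6.27% lower). In TG tamoxifen against NTG tamoxifen the 16 calls became 10 with all probe sets (7.88% of all genes higher and 8.01% lower) and 11 to 21 without 1 array. The 7 differences between the tamoxifen effects, all upward, became 2 with no filter (1.21% of all genes upward and 0.737% downward). Without NTG tamoxifen 1 and TG vehicle 1 they became 11, of which 8 were upward and 3 downward (Adgre1, C1qb and Csf1r). Of all genes, 14.6% then differed each way. The count was 0 with all probe sets, the covariate, the regrouping or both conflicting arrays left out (0% to 0.394% upward). Leaving out 1 array gave 4 to 9, and without TG vehicle 1 the calls were 8 upward and 1 downward (C1qb). With no filter or all probe sets, more features are tested; for the others the cause was not tested. Signs turned for results that did not pass: C1qa with the covariate (0.35 in TG hearts, 1.04 for the difference between effects), Cd74 for that difference with median centring (0.21) and the covariate (0.19), Fcer1g for it without TG vehicle 1 (-0.029, and up to 0.82 without another array) and S100a8 with the regrouping (-0.13). A replicate block gave 11, 0, 0, 14 and 6 calls in the 5 comparisons in this order, and since the numbers do not pair the mice a lost call is not a weaker effect. Median centring moved the median of all genes from -0.07 to 0.18 for the difference between effects; the median of the 31 genes stood 0.64 above it before and 0.67 after. Signal over background limits Cd3e, Cd79a and Itgam.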
